A study of Mus musculus with 12 samples.

Results

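The Hox genes were followed in single enteric cells that had been sorted from the adult mouse gut. A gene model counted as a Hox gene if its symbol was Hoxa, Hoxb, Hoxc or Hoxd followed by a number only, which gave 39 of the 50508 gene models in the table. Of the 39 genes, 28 had at least 1 UMI (unique molecular identifier, 1 per captured transcript molecule) in a retained well, 25 of them in CD49b+ wells, 24 in CD49b- wells and 21 in both. The other 11 had no UMI (Hoxa10, Hoxa11, Hoxa13, Hoxb13, Hoxc11, Hoxd1, Hoxd9, Hoxd10, Hoxd11, Hoxd12 and Hoxd13). Only 7 genes passed the filter on low counts and could be tested across plates: Hoxa4, Hoxa5, Hoxb4, Hoxb5, Hoxb6, Hoxc4 and Hoxc5.

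Cells positive for Dclk1-tdTom, a fluorescent reporter tied to the kinase gene Dclk1, came from gut preparations of adult C57BL/6 mice that hold the longitudinal muscle with the myenteric plexus (LMMP) and were processed as single cells in 96-well plates. The 4 groups were irradiated CD49b+, homeostasis CD49b+, irradiated CD49b- and homeostasis CD49b- cells, with 3 plates in each; CD49b is the integrin alpha 2 chain on the cell surface, and the labels call CD49b+ cells glial and CD49b- cells neuronal. All mice received 3 mg tamoxifen at 8 or 9 weeks of age and were collected 10 days later; irradiated mice received 10.5 Gy at 7 days after tamoxifen, and so 3 days before collection. Each plate held cells from a pool of 2 mice, and the CD49b+ and CD49b- plates of the same number came from the same pool. Tamoxifen was given at 8 weeks for replicate 1 and at 9 weeks for replicate 2 of every group. For replicate 3 it was given at 9 weeks to irradiated and at 8 weeks to homeostasis mice. The labels give no allele beyond the reporter and do not name the segment of the intestine, and only cells that carried the reporter were sorted.

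Hox genes encode homeodomain transcription factors that lie in 4 clusters in mammals, and in the embryo the order of the genes along a cluster follows the order of their expression from head to tail. Genes at the same place in different clusters, such as Hoxa5, Hoxb5 and Hoxc5, form a paralogue group, marked by the number in the symbol. The neurons and glia of the gut descend mostly from vagal neural crest, which arises at the level of the hindbrain and neck, where low to middle paralogue groups are active, whereas the highest numbers mark the caudal end of the body.

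By neuron and glia markers, the gates held the cells their labels name, apart from a few wells. The summed level of 10 glia markers ran from 28024 to 34249 CPM on CD49b+ plates and from 53 to 265 CPM on CD49b- plates, where CPM is the UMI count scaled to the size of the library after TMM normalisation. The summed level of 10 neuron markers ran from 349 to 2327 CPM on CD49b+ plates and from 10040 to 11240 CPM on CD49b- plates. Uchl1 was at 0 in every group. Epithelial markers summed to 248 to 501 CPM on CD49b+ plates and 304 to 454 CPM on CD49b- plates. Of these, Epcam, Cdh1, Krt8 and Krt19 were at 0 in irradiated CD49b+. Fibroblast markers reached 124 CPM on CD49b+ plates and 407 CPM on CD49b- plates. Markers of smooth muscle, endothelial, mesothelial and interstitial cells and of macrophages reached at most 145 CPM. The source of these counts was not tested. Retained wells, those with at least 1000 UMIs and 500 genes, numbered 213 irradiated CD49b+, 223 homeostasis CD49b+, 266 irradiated CD49b- and 262 homeostasis CD49b- wells. Depth differed between gates: plates held 150561 to 243340 retained UMIs in CD49b+ and 541729 to 746674 in CD49b-. Among CD49b+ wells, 4 carried more neuron than glia marker UMIs, all on irradiated plates (1 on replicate 1 and 3 on replicate 2), and they held 59 of the 526 Hox UMIs of that gate. These 4 wells carried both marker sets, with 75 to 201 neuron marker UMIs and 34 to 142 glia marker UMIs, and were deep, with 11627 to 24748 UMIs against medians of 2329 UMIs per well on irradiated CD49b+ replicate 1 and 2592 on replicate 2. Whether they held more than 1 cell was not tested. Among CD49b- wells, 2 carried more glia than neuron marker UMIs, both on homeostasis replicate 3, and they held 12 Hox UMIs. Values without wells whose markers went against their gate leave out the wells of both gates. The plate of irradiated CD49b+ replicate 1 stood apart in other genes, with 1624 CPM of the neuropeptide gene Grp against at most 5.36 CPM on the other CD49b+ plates. Results that rest on these wells or on that plate are given with and without them. The plates shared their well barcodes, a fixed set of 96 positions of which 95 were on all 12 plates.

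The family as a whole was present in both gates and far from evenly used. Hox genes supplied 482, 485 and 379 CPM (here of all retained UMIs, without TMM scaling) on the irradiated CD49b+ plates and 408, 459 and 573 on the homeostasis CD49b+ plates. They supplied 1320, 1428 and 1474 CPM on the irradiated CD49b- plates and 2012, 1619 and 1846 on the homeostasis CD49b- plates. Every CD49b- plate lay above every CD49b+ plate, and within CD49b- every irradiated plate lay below every homeostasis plate, while the treatments overlapped within CD49b+. Means were 449 ± 60.6 CPM in irradiated CD49b+, 480 ± 84.9 in homeostasis CD49b+, 1407 ± 79.2 in irradiated CD49b- and 1826 ± 197 in homeostasis CD49b- (SD, n = 3 each). No test was run on this sum over members. Hoxa5 and Hoxb5 gave 50% of it in CD49b+ wells and 83.9% in CD49b- wells. The order of the plates by the sum thus mainly follows these genes and does not hold for each member.

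**Figure D1:**
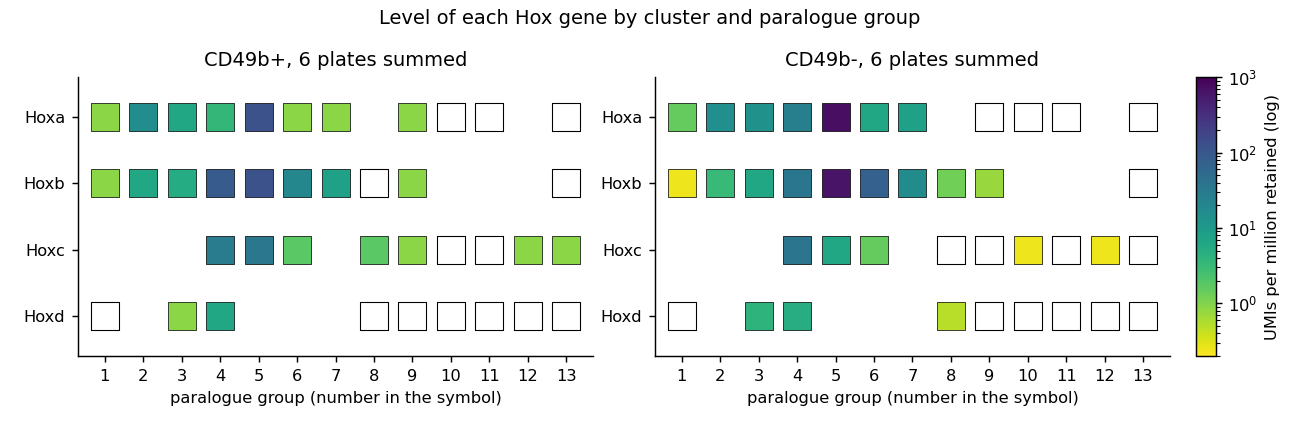
Level of each of the 39 Hox genes as CPM of retained UMIs without TMM scaling (colour, log scale), with the cluster down the page and the paralogue group along it, in CD49b+ (left) and CD49b- (right), summed over 6 plates each; white squares had no UMI. Hoxa5 and Hoxb5 are the darkest squares in both panels, groups 10 to 13 are almost empty, and Hoxb4 and Hoxc5 are darker in CD49b+.

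The UMIs fell in the front and middle of the clusters. Paralogue group 5 held 57.2% of the 526 Hox UMIs of CD49b+ wells and 84.3% of the 6477 Hox UMIs of CD49b- wells. Group 4 held 27.2% in CD49b+ and 6.35% in CD49b-, and groups 1 to 3 held 7.6% in CD49b+ and 2.7% in CD49b-. Groups 6 to 8 held similar shares, 7.03% in CD49b+ and 6.62% in CD49b-. The 16 genes of groups 9 to 13 gave 5 UMIs in each gate, which is 0.951% of the Hox UMIs in CD49b+ and 0.0772% in CD49b-; each of these 10 UMIs was the only such UMI of its well, and they came from Hoxa9, Hoxb9, Hoxc9, Hoxc10, Hoxc12 and Hoxc13. A gene with no UMI could still have one in up to 0.688% of the 436 CD49b+ wells and 0.568% of the 528 CD49b- wells (3 counts, counting error only).

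By cluster, HoxA supplied 30.8% of the Hox UMIs in CD49b+ and 49% in CD49b-, and HoxB supplied 52.9% in CD49b+ and 47.7% in CD49b-. The 9 genes of HoxC supplied 14.8% in CD49b+ and 2.78% in CD49b-, nearly all from Hoxc4 and Hoxc5. HoxD was almost silent, with 1.52% of the Hox UMIs in CD49b+ and 0.587% in CD49b-, from Hoxd3, Hoxd4 and Hoxd8. The Hoxd3 and Hoxd4 values are uncertain, since 61.1% of the 31-base words of Hoxd3 and 49.1% of those of Hoxd4 also occur in other gene models, most often in Gm28230, a protein-coding model on the same strand of HoxD, and then in each other.

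Per kilobase of exon, the order of the genes differed between the gates. In CD49b+ wells the summed UMIs per exon kilobase were 69.3 for Hoxa5, 47.7 for Hoxb5, 38.6 for Hoxb4, 12.9 for Hoxc4, 12.3 for Hoxc5 and 11.2 for Hoxb6. In CD49b- wells the same measure was 1540 for Hoxa5, 912 for Hoxb5, 150 for Hoxb6, 65.9 for Hoxa4, 57.2 for Hoxc4, 54.2 for Hoxb4 and 8.09 for Hoxc5. On this measure Hoxb4 ranked far above Hoxb6 and Hoxc4 in CD49b+, but below Hoxb6 and close to Hoxc4 in CD49b-. Hoxa4, next after Hoxb6 in CD49b- on this measure, had only 2.51 UMIs per exon kilobase in CD49b+. A UMI counts 1 molecule whatever the exon length, and part of the order came from the division by length. Undivided CD49b- UMIs were 294 for Hoxb6, 147 for Hoxc4, 139 for Hoxb4 and 105 for Hoxa4. Undivided CD49b+ UMIs were 133 for Hoxb5, 130 for Hoxa5, 99 for Hoxb4, 38 for Hoxc5, 33 for Hoxc4 and 22 for Hoxb6. The sums of the gates differ in depth and are comparable only within a gate.

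The homeobox of Hoxa5, the DNA that encodes the homeodomain, is shown because Hoxa5 had the most UMIs per exon kilobase in both gates and the homeobox is the stretch that Hox genes share most (GRCm38, GENCODE vM21 transcript, exon 2 of 2, 180 bases read 5′ to 3′ on the strand of the gene, with no base in capitals).
Hoxa5, chr6:52202632-52202811 (-): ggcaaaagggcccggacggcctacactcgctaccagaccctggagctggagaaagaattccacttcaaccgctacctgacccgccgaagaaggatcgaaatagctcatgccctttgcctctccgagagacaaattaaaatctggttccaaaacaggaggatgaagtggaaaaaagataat
The shared sequence bears on whether reads of these genes can be told apart. Over whole transcripts, 0.108% of the 31-base words of Hoxa5, 0.0359% of those of Hoxb5, 1.55% of those of Hoxb4 and 4.55% of those of Hoxc5 also occurred in another gene model. Hoxc5 shares 166 exon bases on its strand with Hoxc10, which had 1 UMI in all.

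The first comparison asked which Hox genes differ between CD49b+ and CD49b- cells. In CD49b+ cells Hoxb4 and Hoxc5 were higher, and Hoxa4, Hoxa5, Hoxb5 and Hoxb6 were lower, by 4.28 to 7.04-fold. Thus 6 of the 7 tested Hox genes passed the threshold (edgeR's quasi-likelihood test over both treatments, Benjamini-Hochberg adjusted p below 0.05), while 62.1% of all 8555 tested genes did, so that the count itself is near the background. The 2 higher and 4 lower genes stand beside 29.6% of all tested genes that were higher and 32.4% that were lower. The median log2 fold change of the 7 genes was -2.10, and that of all tested genes -0.13. The tested genes were those with enough UMIs in at least 1 group and do not stand for all 39.

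Hoxa5, which in the mouse patterns the airways and the stomach as well as the neck vertebrae, had the most UMIs of the Hox genes in CD49b- wells, with 2891, while in CD49b+ wells it had 130 and Hoxb5 had 133. It had 103, 147 and 81.6 CPM on irradiated CD49b+ plates and 107, 111 and 172 CPM on homeostasis CD49b+ plates. On CD49b- plates it had 673, 592 and 611 CPM after irradiation and 1116, 846 and 899 CPM in homeostasis. No CD49b+ plate came near the lowest CD49b- plate. CD49b+ was lower in 6 of 6 pools (log2 fold change -2.67, SE 0.183, adjusted p = 1.19e-11).

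Hoxb5, which in mouse neural crest is needed for normal formation of the enteric nervous system, had 224, 137 and 95.3 CPM on irradiated CD49b+ plates and 77.1, 94.3 and 123 CPM on homeostasis CD49b+ plates. Its CD49b- plates showed 524, 679 and 730 CPM after irradiation and 737, 654 and 779 CPM in homeostasis. The gates again did not overlap, although irradiated CD49b+ replicate 1 was high for its gate. In 6 of 6 pools CD49b+ was the lower, with a log2 fold change over CD49b- of -2.47 (SE 0.194, adjusted p = 1.28e-10). Without the wells whose markers went against their gate it was -2.83 (SE 0.184).

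Hoxb4, a group 4 gene best known from blood stem cells and the neck vertebrae, went the other way. It had 84.8, 89.8 and 102 CPM on irradiated CD49b+ plates and 113, 72.1 and 102 CPM on homeostasis CD49b+ plates. CD49b- plates held 24.9, 45.1 and 40.5 CPM after irradiation and 29.8, 48.5 and 34.5 CPM in homeostasis. Every CD49b+ plate exceeded every CD49b- plate. Hoxb4 was 2.48-fold higher in CD49b+ (1.31 log2 units, SE 0.24, adjusted p = 5.63e-05), and higher in 6 of 6 pools.

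Hoxc5, the HoxC member of the group of Hoxa5 and Hoxb5, had 30.3, 47.3 and 13.6 CPM on irradiated CD49b+ plates and 35.6, 11.1 and 69.7 CPM on homeostasis CD49b+ plates. The CD49b- plates had 6.22, 11.6 and 1.56 CPM after irradiation and 10.5, 3.35 and 7.19 CPM in homeostasis. The lowest CD49b+ plate lay just under the highest CD49b- plate, so the gates overlapped, but within each pool the CD49b+ plate was the higher. With a log2 fold change of 2.32 and an SE of 0.51, Hoxc5 was higher in CD49b+ (adjusted p = 0.000406) in 6 of 6 pools. These values rest on 38 UMIs in CD49b+ wells and 25 in CD49b- wells.

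**Figure D2:**
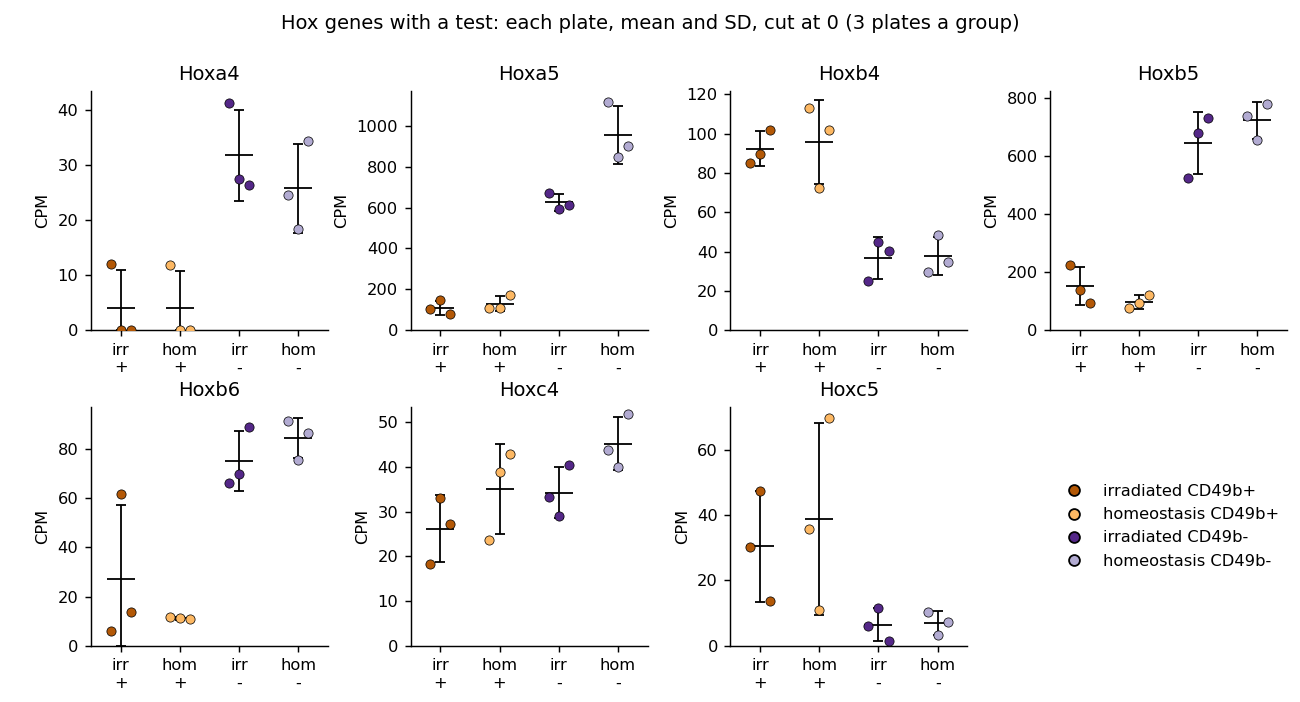
CPM of the 7 tested Hox genes on each plate (points), with the mean and the SD over 3 plates (bars, cut at 0), for irradiated (irr) and homeostasis (hom) CD49b+ and CD49b- groups; each panel has its own axis from 0. Hoxa5 and Hoxb5 sit far higher on CD49b- plates, Hoxb4 and Hoxc5 higher on CD49b+ plates, and Hoxc4 overlaps.

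Hoxb6, a middle group gene of the trunk, had 6.06, 61.5 and 13.6 CPM on irradiated CD49b+ plates and 11.9, 11.1 and 10.7 CPM on homeostasis CD49b+ plates. On CD49b- plates it had 66.3, 69.8 and 88.9 CPM after irradiation and 91.2, 75.3 and 86.3 CPM in homeostasis. The gates did not overlap, but 1 CD49b+ plate, irradiated replicate 2, came close to the CD49b- plates. Between the gates Hoxb6 had -2.10 log2 units (SE 0.358, adjusted p = 2.29e-05, lower in 6 of 6 pools), and -2.93 without that plate.

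Hoxa4, whose overexpression gives mice an enlarged colon, had 4 UMIs in CD49b+ wells against 105 in CD49b- wells. It had 12.1, 0 and 0 CPM on irradiated CD49b+ plates and 11.9, 0 and 0 CPM on homeostasis CD49b+ plates. On CD49b- plates it had 41.4, 27.6 and 26.5 CPM after irradiation and 24.6, 18.4 and 34.5 CPM in homeostasis, all above the CD49b+ plates. Its log2 difference, -2.82 (SE 0.641, adjusted p = 0.000593, lower in 6 of 6 pools), was -4.73 without irradiated CD49b+ replicate 1 and also -4.73 without homeostasis CD49b+ replicate 1, the only CD49b+ plates with a UMI. It fell below the filter and had no test when wells with markers against their gate, or any single CD49b- plate, were left out. The same held for wells of at least 2000 UMIs and 1000 genes and for wells thinned to 1000 UMIs.

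Hoxc4 was the 1 tested gene that did not pass. It had 18.2, 33.1 and 27.2 CPM on irradiated CD49b+ plates and 23.7, 38.8 and 42.9 CPM on homeostasis CD49b+ plates. On CD49b- plates it had 33.2, 29.1 and 40.5 CPM after irradiation and 43.8, 40.1 and 51.8 CPM in homeostasis. The gate difference of -0.36 log2 units (SE 0.298, adjusted p = 0.301) had a 95% interval from -0.94 to 0.23, so a fall of nearly 1 log2 unit in CD49b+ is within it.

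**Figure D3:**
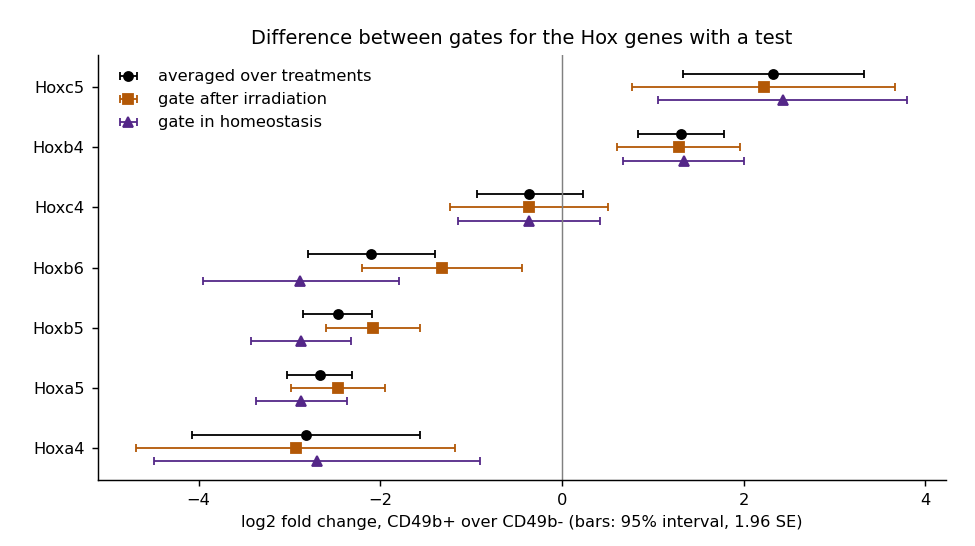
Log2 fold change of CD49b+ over CD49b- (horizontal axis) for the 7 tested Hox genes, averaged over treatments (circles), after irradiation (squares) and in homeostasis (triangles), with 95% intervals. Hoxc5 and Hoxb4 lie right of 0, Hoxc4 spans it, and Hoxb6, Hoxb5, Hoxa5 and Hoxa4 lie left of it under both treatments.

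The direction was the same when each treatment was taken alone. In irradiated plates the log2 fold change of CD49b+ over CD49b- was -2.47 for Hoxa5, -2.08 for Hoxb5, 1.29 for Hoxb4 and 2.22 for Hoxc5. In homeostasis plates it was -2.87 for Hoxa5, -2.87 for Hoxb5, 1.34 for Hoxb4 and 2.43 for Hoxc5. The same 6 genes passed in each, beside 43.3% of all genes tested after irradiation and 49.5% in homeostasis. Without irradiated CD49b+ replicate 1 the same 6 genes passed as well, out of 10 tested Hox genes, beside 6248 of all 10884 tested genes. The values were then -2.68 for Hoxa5, -2.70 for Hoxb5, 1.29 for Hoxb4 and 2.30 for Hoxc5.

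Among the 21 detected genes that were too low to test, the UMI ratio per retained UMI of CD49b+ over CD49b- was below 1 in several middle and front genes. It was 0.143 for Hoxa6 (exact 95% interval 0.00347 to 0.871, from 1 UMI in CD49b+ and 25 in CD49b-) and 0.115 for Hoxa7 (0.00282 to 0.69, from 1 UMI in CD49b+ and 31 in CD49b-). For Hoxb7 it was 0.486 (0.213 to 0.98) and for Hoxa3 0.454 (0.174 to 0.999). Hoxa2, a hindbrain gene and the most abundant of the untested genes with 76 UMIs, had a ratio of 1.03 (0.561 to 1.79), and Hoxb2 1.92 (0.648 to 5.18). Intervals cover counting error only. With no filter on low counts, Hoxa3, Hoxa6 and Hoxa7 passed as lower in CD49b+ too. In that setting 9 of 28 Hox genes passed, beside 7094 of all 26315 tested genes, so the count is near the background.

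Shares of wells with a UMI give the same comparison per cell. A Hox UMI was present in 61% of CD49b+ wells and 99.2% of CD49b- wells, and in 35.3% of CD49b+ and 77.5% of CD49b- wells after each well was thinned to 1000 UMIs to remove the depth difference. Hoxa5 was found in 20.2% of CD49b+ and 95.3% of CD49b- wells, or 9.4% of CD49b+ and 49.4% of CD49b- wells thinned. Hoxb5 was found in 19.3% of CD49b+ and 93.4% of CD49b- wells, or 8.03% of CD49b+ and 49.2% of CD49b- wells thinned. Hoxa5 and Hoxb5 were present together in 4.82% of CD49b+ wells and 90% of CD49b- wells. These joint shares were not thinned, so depth enters them. In thinned wells the Spearman rank correlation of Hoxa5 with Hoxb5 was only 0.052 to 0.225 within CD49b- plates. The median CD49b- well had 5 UMIs of Hoxa5 and 4 of Hoxb5, and the highest well had 20 of Hoxa5 and 22 of Hoxb5.

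The raw shares of Hoxb4 went against its CPM, so no order was read from them. Hoxb4 was found in 19.7% of CD49b+ and 23.1% of CD49b- wells, but in 10.6% of CD49b+ and 4.17% of CD49b- wells thinned. Hoxc5 was found in 7.34% of CD49b+ and 4.36% of CD49b- wells, or in 3.67% of CD49b+ and 0.568% of CD49b- wells thinned. The thinned CD49b- share of Hoxc5 rests on 3 wells.

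Neuron markers give the level of other neuronal transcripts in CD49b+ wells. In the 432 CD49b+ wells with glia markers, the level of the 9 detected neuron markers had a median of 2.24% of their level in CD49b- wells, with a range from 0.936% for Elavl4 to 31.4% for Gap43, the gene of a growth cone protein. On the same scale, Hoxa4 was at 14.3%, Hoxa5 at 15.1%, Hoxb5 at 13.9% and Hoxb6 at 27%. These lie above 7 of the 9 markers, which ran from 0.936% to 2.74%, and below Gap43. The 432 wells were chosen for having fewer neuron than glia marker UMIs, which by itself lowers the neuron markers. Hox genes took no part in that choice, so the 2 kinds of gene are not on an equal footing and no conclusion is drawn from their order. Hoxc4 was at 84.4%, Hoxb4 at 260% and Hoxc5 at 605%.

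**Figure D4:**
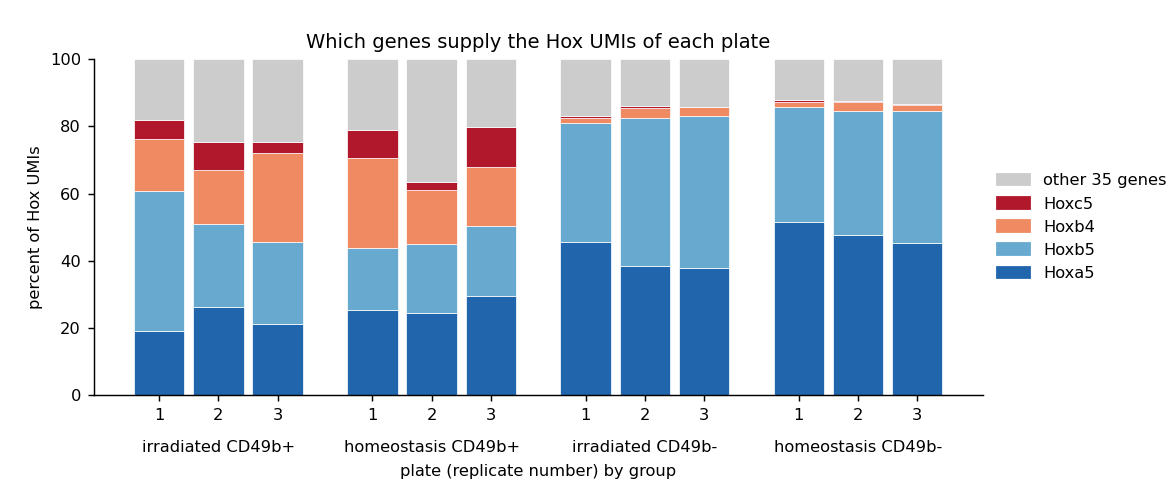
Share of the Hox UMIs of each plate (percent, vertical axis) that came from Hoxa5, Hoxb5, Hoxb4, Hoxc5 and the other 35 Hox genes, by group and replicate. Hoxb4 made up 15.7% to 26.8% on CD49b+ plates and 1.38% to 2.92% on CD49b- plates.

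Hoxa5 and Hoxb5 together gave 50% of the Hox UMIs in CD49b+ wells and 83.9% in CD49b- wells. Hoxb4 gave 15.7%, 16.1% and 26.3% on irradiated CD49b+ plates and 26.8%, 15.9% and 17.4% on homeostasis CD49b+ plates, and between 1.38% and 2.92% on all CD49b- plates. Irradiated CD49b+ replicate 1 stood out with 41.6% from Hoxb5, of whose 37 UMIs 21 lay in a single well with neuron markers.

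The second comparison asked whether 10.5 Gy changed Hox genes 3 days later. No Hox gene passed the threshold in either gate. In CD49b- plates 0 of 7 passed (edgeR; 1 of 7 at an unadjusted p below 0.05; 0 with DESeq2), beside 0.0468% of all 8555 tested genes. In CD49b+ plates 0 of 7 passed (edgeR; 0 of 7 at an unadjusted p below 0.05; 0 with DESeq2), beside 0.713% of all tested genes. The median log2 fold change over the 7 genes was -0.16 in CD49b- and -0.05 in CD49b+, beside 0.00 in CD49b- and 0.09 in CD49b+ over all tested genes. Intervals were wide for genes with few UMIs, so the lack of a call does not show that they were unchanged. In CD49b+ the 95% interval was -2.96 to 3.02 for Hoxa4, -1.63 to 1.04 for Hoxc5 and -1.41 to 0.59 for Hoxc4. In CD49b- it was -0.64 to 1.17 for Hoxa4, -1.57 to 1.41 for Hoxc5 and -1.03 to 0.22 for Hoxc4.

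Hoxa5 in CD49b- cells came closest. All 3 irradiated CD49b- plates (592 to 673 CPM) lay below all 3 homeostasis CD49b- plates (846 to 1116 CPM), a log2 difference of -0.61 (SE 0.211, unadjusted p = 0.00814, adjusted p = 1). The median CD49b- well had 4 Hoxa5 UMIs after irradiation and 6 in homeostasis, and the gene was found in 43.6% ± 3.6 of thinned irradiated wells and 55.3% ± 3.75 of thinned homeostasis wells (SD, n = 3 each). Treatment cannot be told apart from the set of plate numbers outside set A, the plates that hold replicate 1 of each group, where the log2 ratio was -0.73 between 1 irradiated and 1 homeostasis plate. In replicate 3 the treatments also differed in age, with tamoxifen at 9 weeks in irradiated and 8 weeks in homeostasis mice. Hoxb5 showed 43.7% ± 3.95 of thinned irradiated wells and 55% ± 5 of thinned homeostasis wells, with overlapping CPM (log2 fold change -0.17, SE 0.223, adjusted p = 1).

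In CD49b+ cells the irradiation effect on Hoxb5 was 0.63 log2 units (SE 0.324, adjusted p = 0.511), and its plates overlapped. Without the wells whose markers went against their gate, the value was -0.20 (SE 0.331). Among these, the 4 CD49b+ wells with neuron markers held 39 of the 80 Hoxb5 UMIs on irradiated CD49b+ plates. Hoxb6 had 1.39 (SE 0.729, adjusted p = 0.518), which came from 13 UMIs in 10 wells of irradiated replicate 2 and was -0.22 without that plate. Hoxb4 (-0.05, SE 0.352) and Hoxa5 (-0.21, SE 0.305) had plates that overlapped between treatments.

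Whether the irradiation effect differed between the gates was tested as an interaction, the irradiation effect in CD49b+ minus that in CD49b-. It passed for 0 of 7 Hox genes (edgeR; 0 at an unadjusted p below 0.05; 0 with DESeq2), beside 0.0117% of all tested genes. Hoxb5 had 0.79 (SE 0.394, unadjusted p = 0.0555, adjusted p = 0.671), and -0.03 without the wells with markers against their gate. Hoxb6 had 1.55 (SE 0.793, unadjusted p = 0.062, adjusted p = 0.687), and -0.06 without irradiated CD49b+ replicate 2.

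A further comparison was made inside the CD49b- plates, between wells with and without a UMI of Nos1, the gene of neuronal nitric oxide synthase, which marks inhibitory motor neurons of the gut. Wells with Nos1 had lower Hoxa5 and Hoxb5 than the other wells of the same plate. There were 339 wells with and 189 wells without Nos1, summed per plate into 6 pairs, and 2 of the 5 Hox genes that could be tested passed (edgeR with the plate as a block), beside 8.59% of 5241 tested genes. Both were lower, as were 3.8% of all tested genes, while 4.79% were higher. The plate medians of depth were 6322 to 8605 UMIs in wells with Nos1 and 4940 to 7580 UMIs in wells without.

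In wells with Nos1, Hoxa5 had 674, 501 and 555 CPM on irradiated and 1006, 815 and 647 CPM on homeostasis plates. In wells without Nos1 it had 837, 798 and 922 CPM on irradiated and 1358, 1254 and 1355 CPM on homeostasis plates. On each of the 6 plates the wells with Nos1 were lower. This was a log2 difference of -0.65 (SE 0.0794, adjusted p = 3.12e-07).

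In wells with Nos1, Hoxb5 had 536, 602 and 696 CPM on irradiated and 538, 609 and 629 CPM on homeostasis plates. In wells without Nos1 it had 619, 878 and 991 CPM on irradiated and 1027, 1075 and 1085 CPM on homeostasis plates. It too was lower with Nos1 on 6 of 6 plates, with a log2 difference of -0.65 (SE 0.0793, adjusted p = 3.18e-07). The difference was smallest on irradiated replicate 1.

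**Figure D5:**
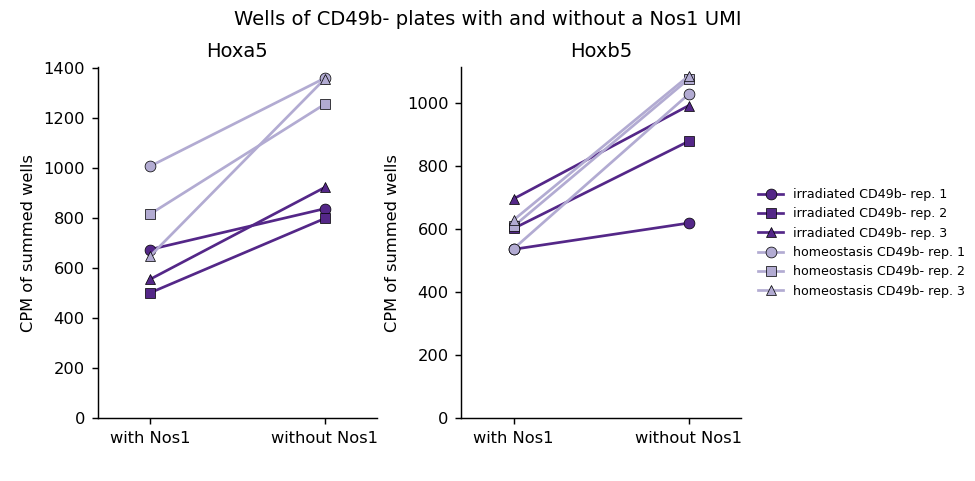
CPM of Hoxa5 (left) and Hoxb5 (right) in summed wells with and without a Nos1 UMI, with a line for each of the 6 CD49b- plates. All lines go up to the wells without Nos1.

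After thinning to 1000 UMIs per well, Hoxa5 was found in 42.5% ± 7.12 of wells with and 61.5% ± 11.3 of wells without Nos1, and Hoxb5 in 42.1% ± 7.73 with and 64.1% ± 12.1 without (SD, n = 6 plates). Sums of thinned wells gave -0.63 for Hoxa5 (adjusted p = 0.0188) and -0.79 for Hoxb5 (adjusted p = 0.00104). Requiring at least 2 Nos1 UMIs gave -0.94 for Hoxa5 and -0.90 for Hoxb5. The other genes did not pass: Hoxb6 had -0.53 (SE 0.19, adjusted p = 0.0946), Hoxc4 -0.68 (SE 0.275, adjusted p = 0.151) and Hoxb4 0.02 (SE 0.296, adjusted p = 0.984).

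Wells with Nos1 made up 71.7%, 55.1% and 76.5% of the irradiated CD49b- plates and 49.5%, 82.1% and 53.8% of the homeostasis CD49b- plates, which overlap. Within wells without Nos1, Hoxa5 was lower on all 3 irradiated plates (798 to 922 CPM) than on all 3 homeostasis plates (1254 to 1358 CPM). Within wells with Nos1 the treatments overlapped, at 501 to 674 CPM after irradiation and 647 to 1006 CPM in homeostasis. These side by side values were not tested.

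The genes that work with or on Hox genes were described from lists. Of 11 genes of TALE homeodomain proteins, the family of the Meis and Pbx partners of Hox proteins, 4 were tested between the gates, 1 was higher in CD49b+ and 1 lower, with a median log2 fold change of -0.36, beside 29.6% of all tested genes higher and 32.4% lower and a median of -0.13. Meis3 was lower in CD49b+ (-3.08, SE 0.543, adjusted p = 3.54e-05; 8 UMIs in CD49b+ and 168 in CD49b-). Tgif1, a repressor of the same family, was higher, with 33 UMIs in CD49b+ and 2 in CD49b- (ratio per retained UMI 58.8, exact 95% interval 15 to 506; adjusted p = 3.78e-06). Meis1 (-0.99, adjusted p = 0.0648) did not pass.

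Of 26 Polycomb and Trithorax genes, whose proteins keep Hox clusters silent or active, 12 were tested between the gates, 2 were higher in CD49b+ and 3 lower, with a median of 0.27; these 5 of 12 are a smaller share than the 62.1% of all tested genes. Kdm6b, a demethylase of the Polycomb mark, was among the higher ones (0.80, SE 0.25, adjusted p = 0.00814). Lower in CD49b+ were Cbx6 (-0.96, SE 0.272, adjusted p = 0.00401), the methyltransferase gene Ezh1 (-0.79, SE 0.331, adjusted p = 0.0408) and the Trithorax-type Kmt2a (-0.76, SE 0.276, adjusted p = 0.0208). The calls differed between treatments taken alone: 2 of the 12 were higher and 0 lower in CD49b+ on homeostasis plates, and 0 higher and 2 lower on irradiated plates. Kmt2a had -1.56 (adjusted p = 0.00382) on irradiated and 0.04 (adjusted p = 0.927) on homeostasis plates, with an interaction of -1.60 (SE 0.558, adjusted p = 0.415). Cbx6 passed on irradiated plates alone, Kdm6b on homeostasis plates alone and Ezh1 on neither. None of 7 tested passed between wells with and without Nos1.

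Of 16 genes of retinoic acid, an inducer of front Hox genes in the embryo, 6 were tested between the gates, 3 were higher in CD49b+ and 2 lower, with a median of 1.09, beside 62.1% of all tested genes past the threshold. The receptor genes Rara (2.73, SE 0.666, adjusted p = 0.00115) and Rxra (2.60, SE 0.566, adjusted p = 0.000373) were higher. The synthesis gene Aldh1a3 was lower (-1.57, SE 0.414, adjusted p = 0.00224), but did not pass on homeostasis plates alone (-0.86, adjusted p = 0.157). Crabp1, which binds retinoic acid in the cell, had 0 UMIs in CD49b+ and 220 in CD49b-, at least 20.6-fold lower (floor of 3 counts over the gate; adjusted p = 1.43e-06). In wells with Nos1 all 3 tested genes were higher, as were 4.79% of all 5241 tested genes: Rarb (1.77, SE 0.306, adjusted p = 0.000102), Crabp1 (1.66, SE 0.349, adjusted p = 0.00129) and Aldh1a3 (1.52, SE 0.317, adjusted p = 0.00111).

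Of 7 regulators of posterior Hox expression, 5 had a UMI and none could be tested. No gene of these lists passed after irradiation in either gate.

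The clusters also hold 46 other gene models between their outermost Hox genes (GRCm38 chromosome 6 from 52155590 to 52260880 for HoxA, chromosome 11 from 96194316 to 96368256 for HoxB, chromosome 15 from 102921103 to 103036852 for HoxC and chromosome 2 from 74668310 to 74765142 for HoxD). Of these, 18 had a UMI and 4 were tested between the gates. Hoxb3os, an antisense model that shares exon positions with Hoxb3 and Hoxb2 on the other strand, was higher in CD49b+ with 37 UMIs against 6 in CD49b- (log2 fold change 4.38, SE 0.618, adjusted p = 1.82e-06). It averaged 25.3 ± 8.05 CPM on irradiated and 43.8 ± 32.6 CPM on homeostasis CD49b+ plates, against 0.485 ± 0.839 CPM on irradiated and 2.69 ± 0.932 CPM on homeostasis CD49b- plates (SD, n = 3 each). Whether the counting used strand is not given in the sources used here, so reads of Hoxb3os and of Hoxb3 or Hoxb2 cannot be told apart in the shared bases. Hotairm1, a noncoding RNA at the front of HoxA, had 0.01 (SE 0.27), the pseudogene Gm11539 -0.02 (SE 0.175) and the small RNA model Gm27477 -0.61 (SE 0.38), and none of these 3 passed. None of the 4 models passed after irradiation.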

How the data were processed

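The authors deposited raw UMI counts per gene and well, with no normalisation, as 1 table of 1150 wells on 12 plates; every column belonged to a sample. The submitters' processing notes list STAR 2.5.3a and featureCounts 1.5.3 beside GRCm38 and GRCh38, with no roles; UMI collapsing, strand and doublet removal are not given in the sources used here. The labels' protocols state lysis and reverse transcription in the well and Nextera XT libraries.

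Wells with at least 1000 UMIs and 500 genes were retained (964 of 1150), and a limit of 20% mitochondrial UMIs removed none of them. No doublet caller was run; the labels describe single-cell data from sorted cells in plate wells and do not state how many cells a well received. Counts were summed per plate for edgeR 4.0.16 (R 4.3.3), with TMM scaling, filterByExpr and a mean for each of the 4 groups; quasi-likelihood p-values were adjusted by Benjamini-Hochberg over all 8555 tested genes and called at 0.05. The gate contrast averaged both treatments. The test by Nos1 used sums per plate and class with the plate as a block (5241 genes). The scripts were tested on simulated data, and DESeq2 1.42.0 was an alternative. Annotation was GENCODE vM21 of GRCm38; shared sequence was counted in words of 31 bases. A UMI ratio has an exact 95% interval, which covers counting error only, and a count of 0 allows 3 counts.

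The Hox genes, the gene lists and the split by Nos1 were chosen with earlier results of these data known. Named genes were all Hox genes that passed filterByExpr, list genes past 0.05 (at most 6 a list), and tested gene models inside the clusters; Hox and list genes outside this rule were named after their values were seen. CD49b+ and CD49b- plates with the same number came from the same mice, per the labels. Residuals of same-pool plates correlated at 0.167, 0.0989 and -0.0307 after irradiation and at 0.0834, 0.0372 and 0.0505 in homeostasis (8555 genes, which are not independent). The highest correlation with another pool of the treatment was -0.0142, 0.0536 and 0.104 after irradiation. In homeostasis it was -0.0347, 0.00719 and -7.98e-05. For irradiated replicate 3 the same-pool value was thus the lower. Replicate numbers follow the order of the samples. Plate sets were inferred from plate numbers, and the labels do not say that they are sequencing runs: replicate 1 of all 4 groups formed set A, the other irradiated plates set B and the other homeostasis plates set C. Some genes and sequences are not reported here.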

Additional observations from a re-analysis of the deposited data

How the results depend on the processing

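Of the 7 tested Hox genes, 6 passed between CD49b+ and CD49b-, beside 62.1% of all tested genes. The count was 5 to 7 with 1 plate left out, but the number of Hox genes tested changed too. It was 5 or 6 without a CD49b- plate and 10 without a CD49b+ plate. Without homeostasis CD49b+ replicate 2, 7 of 10 passed, with Hoxa7 as the added gene, beside 5852 of all 10823 tested genes. The 6 genes that passed with all plates also passed with RLE size factors, DESeq2, plate set as a term and the mouse pool as a replicate block. With wells of at least 2000 UMIs and 1000 genes, 5 passed and Hoxa4 had no test. Wells with the markers of their gate gave the same 5 genes, again with no test of Hoxa4. With wells thinned to 1000 UMIs, 2 passed, because only Hoxa5 and Hoxb5 were then left to test, beside 1561 of all 2417 tested genes. The irradiation and interaction counts were 0 in every setting run. The mouse pool as a replicate block was run for the interaction (0 genes) but not for irradiation within a gate, where each pool has 1 treatment and 1 plate. By Nos1, 2 to 3 genes passed with 1 plate left out, and 2 without the plate as a replicate block. Mean shares of wells with a Hox UMI moved when thinned, to 35.1% in CD49b+ (61% unthinned) and 77.4% in CD49b- (99.3% unthinned).

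Signs of uncalled values changed as follows, and the cause was not tested. For irradiation in CD49b-, Hoxb4 had 0.02 with no filter and 0.00 with wells of at least 2000 UMIs and 1000 genes, and Hoxc5 had 0.13 with wells holding the markers of their gate. For irradiation in CD49b+, Hoxa4 had -0.01 with RLE and with DESeq2 and -0.05 with no filter, Hoxb4 had 0.09 in deeper wells and Hoxb5 -0.20 in marker wells. For the interaction, Hoxb4 had 0.08 and Hoxc4 0.03 in deeper wells, Hoxb5 had -0.03 and Hoxc4 0.12 in marker wells, and Hoxc4 had 0.00 with plate set as a term and 0.02 with the mouse pool as a block. By Nos1, Hoxb4 had -0.04 with DESeq2 and -0.10 at 2 or more Nos1 UMIs. With 1 plate left out, the range for irradiation in CD49b- was -0.17 to 0.22 for Hoxb4 and -0.89 to 0.39 for Hoxc5. In CD49b+ it was -3.73 to 3.73 for Hoxa4, -0.49 to 0.07 for Hoxa5, -0.23 to 0.08 for Hoxb4, -0.22 to 1.82 for Hoxb6 and -0.80 to 0.47 for Hoxc5. For the interaction it was -3.99 to 3.47 for Hoxa4, -0.29 to 0.12 for Hoxb4, -0.06 to 1.98 for Hoxb6, -0.25 to 0.18 for Hoxc4 and -0.72 to 0.59 for Hoxc5, and by Nos1 -0.16 to 0.21 for Hoxb4.

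Besides Hoxa5 and Hoxb5, 2 genes passed by Nos1 in a setting: Hoxb6 at 2 or more Nos1 UMIs (-0.87, adjusted p = 0.00744) and Hoxc4 without homeostasis CD49b- replicate 1 (-0.94, adjusted p = 0.0383). Within plate set A, with 1 plate a group and no test, the gate log2 ratio was -1.46 for Hoxa4, -3.09 for Hoxa5, -2.07 for Hoxb5, -3.14 for Hoxb6, 1.85 for Hoxb4, 1.98 for Hoxc5 and -0.88 for Hoxc4. Depth left 21 detected Hox genes without a test.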

Other observations

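Hoxa5 and Hoxb5 were also compared between CD49b- wells with and without other transmitter genes. These genes were chosen after their values were seen, and the ratios of the summed Hox UMIs per retained UMI are descriptions with no test, over plates with at least 10 wells on each side. In wells with a UMI of Slc18a3, the vesicular acetylcholine transporter of excitatory neurons, over wells without, the median ratio was 1.85 for Hoxa5 (1.17 to 2.09) and 1.8 for Hoxb5 (1.39 to 2.5), above 1 on 6 of 6 plates for each. Wells with Chat, the enzyme that makes acetylcholine, had a median ratio of 1.45 for Hoxa5 (0.803 to 1.84, below 1 on 1 of 6 plates) and 1.43 for Hoxb5 (1.39 to 1.63). Wells with the tachykinin gene Tac1 had 1.53 for Hoxa5 (1.25 to 1.99) and 1.35 for Hoxb5 (1.25 to 1.66) over 5 plates.

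Wells with Vip, a peptide gene of inhibitory neurons, had a median ratio of 0.628 for Hoxa5 (0.511 to 0.899) and 0.68 for Hoxb5 (0.491 to 0.87). Wells with Npy had 0.724 for Hoxa5 (0.602 to 0.946) and 0.711 for Hoxb5 (0.586 to 0.861). Both lay below 1 on 6 of 6 plates for each gene. Penk, Sst, Calcb and Grp gave no common direction. Wells with Penk, the enkephalin gene, had 1.05 for Hoxa5 (0.848 to 1.27, below 1 on 2 of 6 plates) and 1.32 for Hoxb5 (1.12 to 1.52). Wells with Sst had 1.19 for Hoxa5 (0.899 to 1.56) and 1.15 for Hoxb5 (1.04 to 1.42) over 3 plates. Over 2 plates, wells with Calcb had 0.725 for Hoxa5 and 1.04 for Hoxb5, and wells with Grp had 0.926 for Hoxa5 and 1.2 for Hoxb5. Wells with Calb2 had 1.23 for Hoxa5 and 1.24 for Hoxb5 over 5 plates, above 1 on each. Wells with Cartpt could be compared on 1 plate only, with 0.724 for Hoxa5 and 0.73 for Hoxb5. The same wells enter several of these splits, which are therefore not independent of each other or of the split by Nos1.

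Among the noncoding models of the clusters that were too low to test, Haglr in HoxD had 4 UMIs in CD49b+ wells and 90 in CD49b- wells (ratio per retained UMI 0.158, exact 95% interval 0.0423 to 0.42), and Hoxaas2 in HoxA had 3 in CD49b+ and 60 in CD49b- (0.178, 0.0358 to 0.546). Both were named after their values were seen.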
